A study of Mus musculus with 45 samples.

Results

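Meningeal macrophages (mMΦ) are the resident macrophages of the membranes that cover the brain, and they were compared here between the embryo at day E14.5 and the adult at postnatal day P56. The comparison took the 3 libraries labelled as mMΦ at E14.5 and the 3 labelled as mMΦ at P56, 6 of the 45 bulk RNA-seq libraries of the study, and it was made over all genes. The study profiled microglia, meningeal and perivascular macrophages of the mouse brain at several ages. Both groups were untreated Cx3cr1GFP/wt mice on the C57BL/6J strain from a specific-pathogen-free breeding facility. Cx3cr1GFP puts green fluorescent protein into one copy of the fractalkine receptor gene Cx3cr1, so all animals of both ages carried 1 intact copy. Cells were sorted into an RNA-stabilising reagent, and cDNA was made from picogram amounts of RNA. All 6 libraries belonged to the batch named Project_S232, so age and batch were not mixed. The study describes individual mice; the labels give no sex and no sorting gates, and nothing names the animal behind a library. The p-values therefore measure the spread between these libraries, whatever its source.

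As background, meningeal macrophages arise from embryonic precursors that seed the brain surface before birth, and they persist there through local renewal. In the adult meninges they sample cerebrospinal fluid and tissue debris through scavenger and Fc receptors, and a part of the population presents antigen on MHC class II. CD206 (Mrc1), LYVE1, CD163 and the haem- and lipid-handling proteins are among their usual markers, while microglia, the macrophages of the brain tissue itself, are known by P2ry12, Tmem119 and the transcription factor Sall1.

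From E14.5 to P56, 35 of 55 mitosis genes fell, while 7 of 9 MHC class II genes, 17 of 26 complement and Fc receptor genes and 18 of 41 lysosomal genes rose. Among the genes named by rule with at least 500 CPM at the higher age, the largest increases were those of the MHC class II genes H2-Aa, H2-Eb1 and H2-Ab1, the prostaglandin synthase Ptgds and the C-type lectin Cd209a. Among the largest decreases were those of the mitotic genes Ckap2l, Cdca5 and Foxm1, which had no counts in any P56 library. The border macrophage markers did not move as a block: Cbr2, Cd163 and Ms4a7 rose, Slc40a1 and Ednrb fell, and the change of Mrc1 did not pass the test. Lyve1 was lower at P56 than at E14.5 but higher at P3, and its call was lost without any 1 E14.5 library. Of 12222 genes with enough counts to be tested, 1729 (14.1%) passed an adjusted p of 0.05 in edgeR's quasi-likelihood test with Benjamini-Hochberg adjustment, here termed called. Of these, 867 (7.09% of those tested) were higher and 862 (7.05%) lower at P56. In every one of the 1729 genes the 3 libraries of one age lay wholly above the 3 of the other. The same held for genes that were not called, among them Pf4, Mcm5 and Igf1. The share of all tested genes so separated was not counted, so the separation is no further support for the calls. In simulated counts this test missed most changes of 2-fold to 8-fold, so a gene not called may still have changed. The median log2 fold change over all genes tested was -0.02. Fold changes below are log2, P56 against E14.5, with the standard error, and levels are CPM, read counts scaled to library size, after TMM scaling; a CPM is not corrected for gene length.

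**Figure D1:**
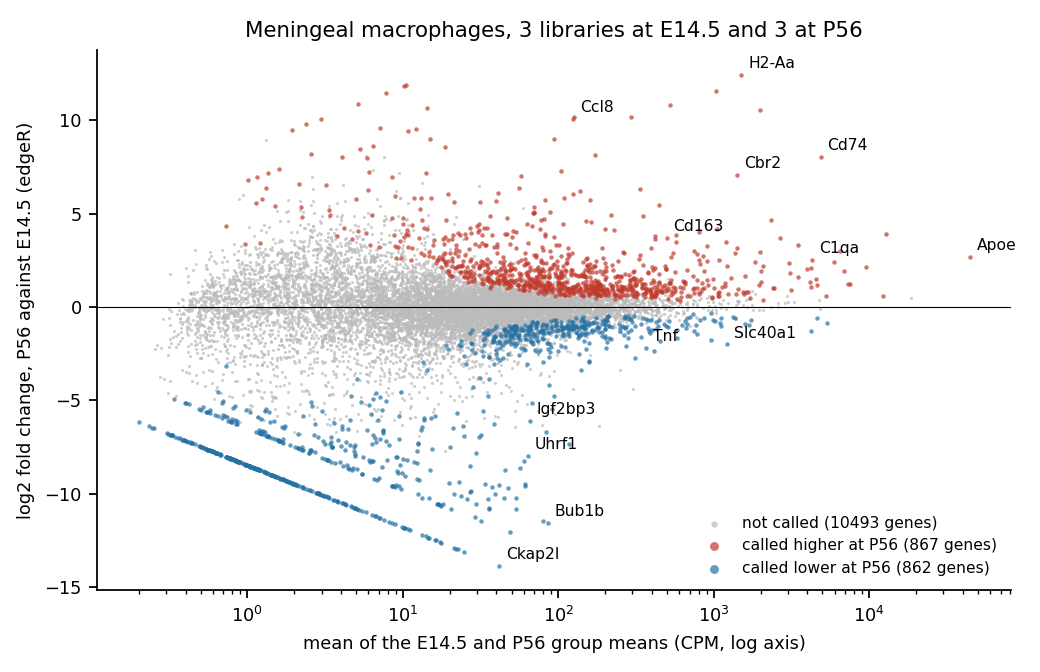
Each point is 1 of the 12222 tested genes, with the mean of the E14.5 and P56 group means in CPM on a log x axis and the edgeR log2 fold change on the y axis. Red points are the 867 genes called higher and blue points the 862 called lower; the lowest straight line of blue points is formed by genes with no counts at P56, whose fitted fold change follows from their level at E14.5 alone.

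The libraries held 18703313 to 24979129 counted reads, and the spread between replicates differed strongly by age. The common dispersion, edgeR's measure of replicate scatter, was 0.21 at E14.5 and 1.61 at P56. Pearson's r of log2 CPM across genes was 0.971 to 0.974 among E14.5 libraries and 0.783, 0.8 and 0.866 among P56 libraries, the first P56 library being the least like the others. With every library thinned to 17557385 reads, 16867 to 18339 genes had a read at E14.5 and 14065 to 15236 at P56. The 100 most abundant genes took 24.9% to 25.9% of reads at E14.5 and 39.5% to 41.5% at P56. Among the 862 genes called lower, 247 had no counts at P56, and the part of fewer detected genes in these calls was not tested. The first and second E14.5 libraries held Xist, a female-specific transcript, at 31.2 and 74.0 CPM, and the third at 0.755 CPM, whereas all P56 libraries held the Y-linked Ddx3y at 48.5, 69.8 and 101 CPM. Sex and age were thus partly confounded and cannot be told apart in full; the third E14.5 library alone against P56, with that library assumed to vary like the P56 group, left 44 calls, 41 higher and 3 lower, all shared with the fit of 6 libraries. Leaving out any 1 E14.5 library left 396, 457 and 386 calls without replicates 1, 2 and 3, and leaving out a P56 library gave 2436, 1797 and 1721. None of the 1729 calls was called in the opposite direction in any of these fits. A call is described below as held when it was made with each of the 6 libraries left out in turn.

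MHC class II molecules display peptides from engulfed material to CD4 T cells, with Cd74 as the chaperone that guides them and the H2-DM proteins as peptide editors. Of the 11 genes listed, 9 were tested and 7 rose, none fell, and the list's median log2 fold change was 6.07 against -0.02 over all genes. H2-Aa, a chain of the I-A molecule, was at 0.745, 0.246 and 0.713 CPM in the 3 E14.5 libraries and at 3978, 2577 and 2475 CPM at P56. Its fold change was 12.44 ± 0.52 (edgeR adjusted p = 0.000135). All P56 libraries lay far above all E14.5 libraries, and the same separation was seen for the other chains. H2-Ab1 was at 2.67, 0.775 and 4.74 CPM at E14.5 and at 5613, 3231 and 2963 CPM at P56, a change of 10.56 ± 0.82 (edgeR adjusted p = 0.00113). H2-Eb1 was at 0.482, 0.986 and 0.629 CPM and then at 2853, 1699 and 1627 CPM, a change of 11.54 ± 0.47 (edgeR adjusted p = 0.000132). Cd74, unlike the chains, was already well above 0 in the embryo, at 40.8, 31.8 and 41.9 CPM, and reached 12610, 9073 and 7394 CPM. Its change was 8.04 ± 0.30 (edgeR adjusted p = 0.000114). The peptide editors, added after their values were seen, rose by less, by 5.75 ± 0.32 for H2-DMa and 6.07 ± 0.20 for H2-DMb1, and H2-DMb2 by 4.76 ± 1.17. H2-Oa and H2-Ob, the chains of an inhibitor of H2-DM, did not pass, at -2.75 ± 0.80 and 5.84 ± 1.71 (edgeR adjusted p = 0.0744 and 0.0803). Ciita, the master regulator of these genes, had too few counts to be tested: it was at 0 in all E14.5 libraries and at 0, 10.7 and 1.97 CPM at P56. The summed CPM of the list was 55.7, 45.9 and 60.3 at E14.5 and 25750, 17230 and 14920 at P56. Means at P3, P10 and P21 were 130, 697 and 1234 CPM, so that on the linear CPM scale most of the increase lay between P21 and P56; on a log scale it was spread over the ages from P3 on. All calls but that of H2-DMb2 held.

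MHC class I genes also rose, by less: 11 of 20 tested members were called higher and 1 lower, with a median of 1.82. H2-K1, a classical class I heavy chain, was at 271 to 310 CPM in the E14.5 libraries and at 1441, 1582 and 1515 CPM at P56, with narrow groups at both ages. It rose by 2.45 ± 0.10 (edgeR adjusted p = 0.000114). H2-T23, a non-classical class I gene, rose by 3.18 ± 0.14, and the peptide-loading factor Tapbpl by 2.30 ± 0.30. H2-Q7, a further non-classical gene with near-identical relatives among which reads may be split, was called at 3.44 ± 0.86 from levels of 0.141 to 0.307 CPM at E14.5 and 1.33 to 3.16 at P56, and this call was lost with any library left out. The single lower member was the peptide-trimming protease Erap1, chosen for mention after its value was seen, at 105, 103 and 107 CPM against 46.8, 48.5 and 67.9. Its change was -0.90 ± 0.21 (edgeR adjusted p = 0.0369), and it did not hold. The general chaperones of the endoplasmic reticulum on the list, Pdia3 and Calr, did not pass, at 0.37 ± 0.11 and 0.22 ± 0.11. Of the 11 higher calls, 9 held; Tapbpl was lost without E14.5 replicate 3.

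The class II promoters share a known block of elements upstream of the start, among them the Y box CTGATTGG, which binds the factor NF-Y. The following windows of 70 bases from the RefSeq promoters of build GRCm38.p6 show it for the 2 genes with the largest changes, with the box in capitals. H2-Aa lies at chr17:34287847-34287916 on the minus strand and H2-Eb1 at chr17:34305763-34305832 on the plus strand.
H2-Aa: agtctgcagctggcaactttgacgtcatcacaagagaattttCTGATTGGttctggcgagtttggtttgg
H2-Eb1: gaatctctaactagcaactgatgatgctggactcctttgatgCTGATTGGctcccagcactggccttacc
Searched on both strands from 250 bases before to 50 after the start, these letters occurred in 4 of 8 class II genes with a RefSeq promoter (50%) and in 4.7% of all 27025 promoters. This motif was chosen after the values were seen. It was in 2 of the 5 called genes with a promoter and in 2 of the 3 others, which were not called or not tested. These numbers are too small to tell whether its presence follows the calls.

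**Figure D2:**
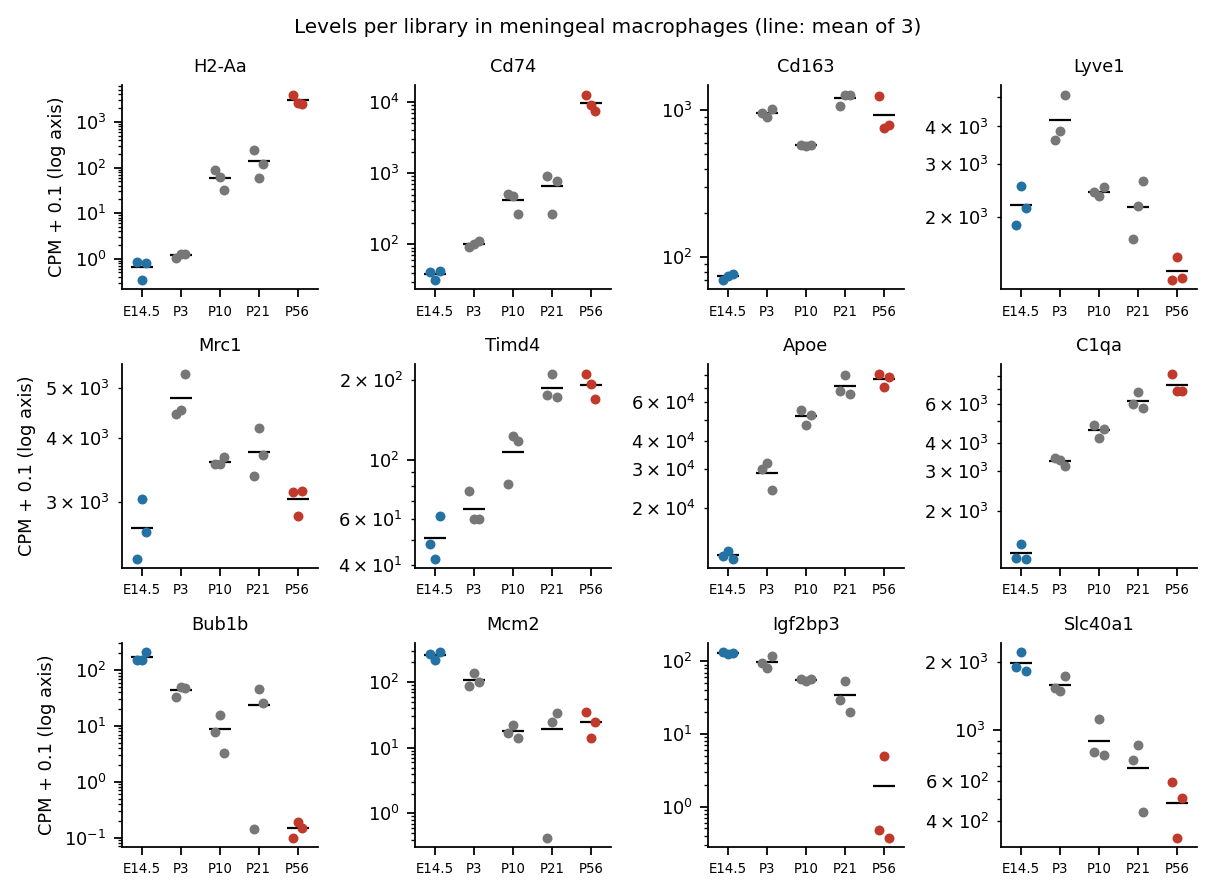
Levels of 12 genes in each of the 15 mMΦ libraries, in CPM plus 0.1 on log axes that differ between panels, by age from E14.5 to P56; points are libraries, black lines the mean of 3, blue E14.5 and red P56. H2-Aa and Cd74 climb through P21 and are highest at P56, Cd163 is already at 955 CPM at P3, Lyve1 and Mrc1 peak at P3, and Bub1b, Igf2bp3 and Slc40a1 decline.

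The markers used to tell border macrophages from microglia changed in both directions. Of 30 members, all tested, 15 rose and 8 fell, with a median of 0.63. The lectins and metabolic markers rose most. Cbr2, a carbonyl reductase used as a marker of these cells, was at 20.5, 18.3 and 26.1 CPM at E14.5 and at 3076, 2722 and 2628 CPM at P56. It rose by 7.07 ± 0.19 (edgeR adjusted p = 6.71e-05), with no overlap and small scatter at both ages. Cd209a, a DC-SIGN-type lectin, went from 0.876, 0.599 and 0.0839 CPM to 1175, 312 and 269 CPM. The first P56 library stood well above the other P56 libraries for Cd209a, yet all were far above the embryo. The change was 10.18 ± 1.10 (edgeR adjusted p = 0.00341), and its relatives Cd209g, Cd209b and Cd209f rose by 8.99 ± 1.01, 7.30 ± 0.59 and 6.32 ± 0.53. Cd163, the receptor for haemoglobin-haptoglobin complexes, was at 70.4, 75.1 and 77.0 CPM at E14.5 and at 1236, 752 and 789 CPM at P56. It rose by 3.69 ± 0.24 (edgeR adjusted p = 0.000679), and had reached a mean of 955 CPM by P3. Apoe, the lipid carrier, went from 12060, 12710 and 11780 CPM to 81110, 70570 and 77990 CPM, a change of 2.7 ± 0.09 (edgeR adjusted p = 8.76e-05). Ms4a7 rose by 2.2 ± 0.17 and Timd4, which binds phosphatidylserine of dying cells, by 1.97 ± 0.20. Timd4 was at 47.8, 42.3 and 61.3 CPM at E14.5 and at 212, 192 and 170 CPM at P56. Maf, a transcription factor of resident macrophages, was called at 0.66 ± 0.15.

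The members that fell included endocytic and transport genes that are abundant in the embryo. Slc40a1, the iron exporter ferroportin, was at 1897, 2192 and 1821 CPM at E14.5 and at 597, 340 and 504 CPM at P56. It fell by 1.99 on the log2 scale, with a standard error of 0.23 (edgeR adjusted p = 0.00463). Ednrb, an endothelin receptor, changed by -1.76 ± 0.14 (edgeR adjusted p = 0.00125). Lyve1, the hyaluronan receptor, was at 1876, 2527 and 2139 CPM at E14.5 and at 1230, 1468 and 1247 CPM at P56, a change of -0.69 ± 0.14 (edgeR adjusted p = 0.0248). The end points did not bracket its course, since the mean was 4194 CPM at P3. Mrc1, the mannose receptor CD206, was at 2331, 3045 and 2628 CPM and then at 3137, 2820 and 3156 CPM, with overlapping groups. Its change of 0.23 ± 0.12 did not pass (edgeR adjusted p = 0.323), and it too was higher between, at 4768 CPM at P3. Pf4, also a chemokine, was at 2573, 2290 and 2340 CPM against 4961, 2687 and 2910 and did not pass, at 0.60 ± 0.25 (edgeR adjusted p = 0.204). Of the higher calls 13 of 15 held and of the lower calls 4 of 8. Maf and Lyve1 were among those lost, Lyve1 without any one E14.5 library or the third P56 library.

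Microglia markers were the other identity list. Of 24 listed, 21 were tested, 11 rose and none fell, with a median of 1.59. Sall1, a transcription factor of microglia identity, was near 0 at both ages, and was at 0.0438, 1.97 and 0.168 CPM at E14.5 and at 0, 1.51 and 1.37 CPM at P56. Its change was not called (edgeR adjusted p = 0.929). In the microglia libraries of the same batch at these ages it was at 123 to 375 CPM on the scale used for both populations. P2ry12, which senses extracellular ADP, was at 148, 208 and 172 CPM at E14.5 and at 367, 384 and 330 CPM at P56, a change of 1.08 ± 0.16 (edgeR adjusted p = 0.0109). Its levels in P56 microglia were 10150 to 14680 CPM. Among the members that rose were Olfml3 (5.86 ± 0.51), Sparc (3.82 ± 0.51) and Siglech (2.75 ± 0.20), a secreted glycoprotein, a matrix protein and a lectin. Cx3cr1, whose locus carries the reporter, was at 542, 619 and 526 CPM against 311, 565 and 606 CPM, with overlap, and was not called (-0.15 ± 0.25). The summed CPM of the list was 3701 to 4108 at E14.5 and 9901 to 11650 at P56, and the part of any microglia among the sorted cells in these increases was not tested. Of the 11 calls 8 held; P2ry12 was lost without E14.5 replicate 1 or 3 and Sparc without replicate 2.

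Many transcripts of cell division fell. Of 55 mitosis genes tested, 35 were lower and 1 was higher at P56, with a median of -6.31, and of 42 DNA replication genes 16 were lower and none higher, with a median of -2.70. The summed CPM of the mitosis list was 5692, 5000 and 5744 at E14.5 and 586, 676 and 455 at P56, and that of the replication list 4658, 4240 and 4908 against 598, 847 and 762. In both lists every P56 library lay below every E14.5 library by a wide margin. Ckap2l, a spindle protein, was at 100.1, 68.2 and 81.7 CPM at E14.5 and had no counts in any P56 library, so it was at least 1650-fold lower, taking 3 counts over the P56 group as the floor. By the same floor Cdca5, which protects sister chromatid cohesion, was at least 979-fold lower, the mitotic transcription factor Foxm1 at least 875-fold and the kinesin Kif18b at least 688-fold. Bub1b, a spindle checkpoint kinase, was at 154, 151 and 207 CPM at E14.5 and had 3 counts over the P56 libraries. Its ratio was 3360 (95% counting interval 1150 to 16300; edgeR adjusted p = 0.000235). Mki67, the antigen of the Ki-67 proliferation marker, went from 36.5, 86.4 and 68.9 CPM to 1.84, 0.0914 and 1.92 CPM. Its change was -5.58 ± 1.11 (edgeR adjusted p = 0.0251). The mitotic genes with the highest levels that were not called, Smc4 and Racgap1, were also below the embryo in each P56 library, at -2.00 ± 0.90 and -5.73 ± 1.57 (edgeR adjusted p = 0.231 and 0.0653). Cenpf, a kinetochore protein named after its values were seen, was at 51.8, 60.6 and 69.5 CPM against 65.5, 47.3 and 69.96 CPM, with overlap, and was not called.

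Among DNA replication genes, the replication factor Cdc45 was at 37.9, 41.1 and 49.2 CPM at E14.5 and had 2 counts at P56, a ratio of 1270 (95% counting interval 351 to 10500). The polymerase subunit Pole had 1 count at P56, a ratio of 994 (178 to 39300). The hemimethylated-DNA reader Uhrf1 and the licensing factor Cdc6 were called at -7.97 ± 1.18 and -6.95 ± 1.48. Mcm5 and Mcm6, subunits of the replicative helicase, were abundant in the embryo but scattered at P56. Mcm5 was at 356, 321 and 401 CPM and then at 0, 12.8 and 0.0916 CPM, with no overlap, and was not called at -6.35 ± 1.79 (edgeR adjusted p = 0.0705). The 1 mitosis gene that rose, named after its value was seen, was the securin Pttg1, at 43.5, 52.6 and 34.6 CPM at E14.5 and at 223, 142 and 126 CPM at P56. It rose by 1.95 ± 0.31 (edgeR adjusted p = 0.0129). Of the lower calls 22 of 35 held on the mitosis list and 6 of 16 on the replication list, where the count was 6, 9 and 6 without E14.5 replicate 1, 2 and 3 and 32 without the first P56 library. Kif18b, without E14.5 replicate 1, and Mki67, Uhrf1, Cdc6, Pole and Pttg1 were among the calls lost in at least 1 such fit.

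The promoters of many mitotic genes hold a cell cycle homology region, the letters TTTGAA, known to be bound by the complex that represses them in resting cells. Windows of 70 bases around it are shown for 3 genes whose transcripts were nearly or fully absent at P56, with the letters, or their reverse complement TTCAAA, in capitals. They come from the RefSeq promoters of GRCm38.p6: Ckap2l at chr2:129297217-129297286 on the minus strand, Kif11 at chr19:37376312-37376381 and Ncapg at chr5:45669851-45669920 on the plus strand.
Ckap2l: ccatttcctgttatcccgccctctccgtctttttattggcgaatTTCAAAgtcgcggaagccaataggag
Kif11: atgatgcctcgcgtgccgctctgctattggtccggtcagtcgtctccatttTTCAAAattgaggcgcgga
Ncapg: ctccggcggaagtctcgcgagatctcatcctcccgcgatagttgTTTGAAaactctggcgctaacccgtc
The letters were found on either strand in 35 of the 44 mitosis genes with a RefSeq promoter (79.5%), against 20.2% of all 27025 promoters. They were in 22 of 29 called genes and in 13 of 15 others. Kif11, a spindle motor, and Ncapg, a condensin subunit, were chosen after their values were seen; they had 2 counts each at P56, ratios of 2110 (585 to 17500) and 2090 (578 to 17200) against the embryo.

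Other genes with the largest decreases had no counts at P56. Among genes of the spindle and kinetochore, Spag5 was at least 842-fold, Ckap2 at least 698-fold and Cenph at least 641-fold lower, the exonuclease Exo1 at least 581-fold and the helicase Ddx11 at least 580-fold. Trim59 was lower by at least 892-fold, the palmitoyltransferase Zdhhc2 by at least 558-fold and the lipase inhibitor Angptl4 by at least 644-fold. Angptl4, which is no cell cycle gene, was at 26.0, 34.1 and 37.2 CPM in the embryo. Among genes above 500 CPM the decreases were smaller and included the tubulin Tubb5, at -2.34 ± 0.22, and the actin regulator Coro1a, at -1.68 ± 0.10. Tubb5 was at 658, 717 and 690 CPM at E14.5 and at 91.4, 164 and 142 CPM at P56. Nfkbid, an atypical inhibitor of NF-κB, and the endocytic adaptor Sh3gl1 changed by -1.84 ± 0.31 and -1.37 ± 0.09. Ckap2, Cenph, Exo1, Ddx11, Zdhhc2, Angptl4 and Nfkbid did not hold.

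**Figure D3:**
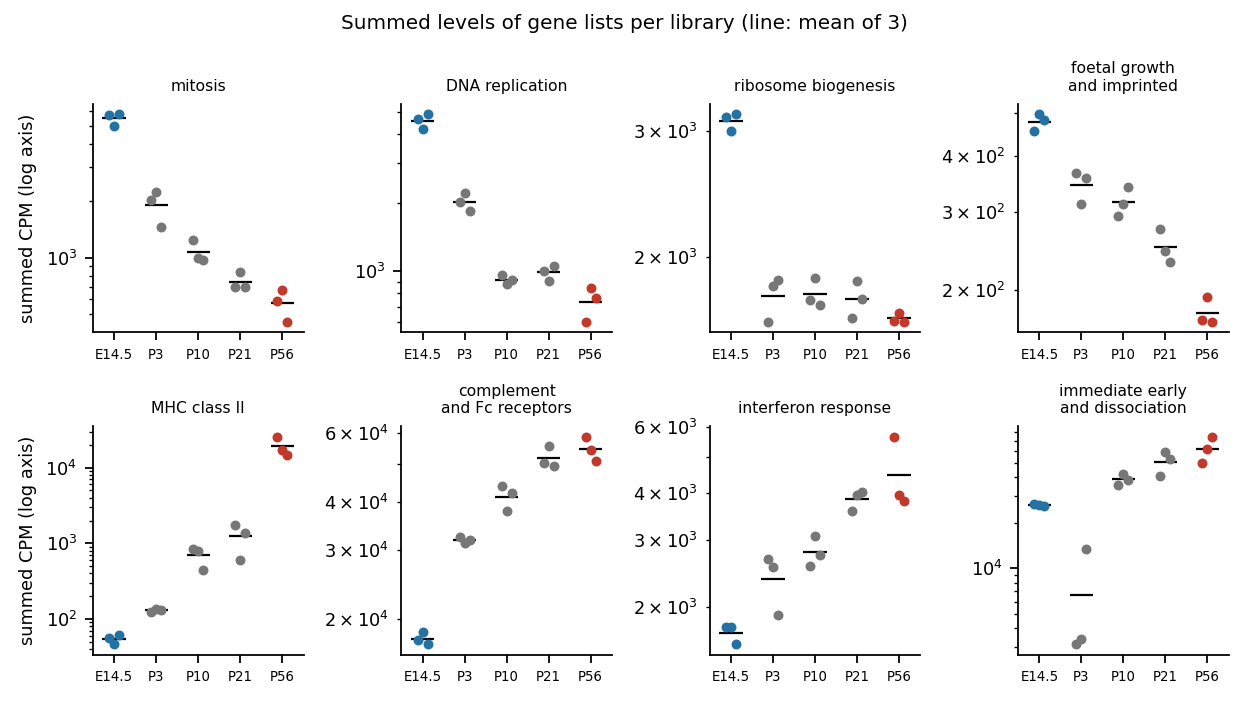
Summed CPM of 8 gene lists in each mMΦ library by age, on log axes that differ between panels; points are libraries, lines the mean of 3. The mitosis sum falls at each age to 455 to 676 CPM at P56, ribosome biogenesis has dropped by P3, MHC class II rises at each age, and the immediate early sum is lowest at P3.

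Of 38 genes for ribosome assembly 3 were called lower and none higher, and this share of 7.89% was near the 7.05% of all genes called lower; the median was -0.94. The summed CPM was 2998 to 3167 at E14.5 and 1620 to 1669 at P56, without overlap, and a mean of 1763 was reached by P3. Ncl, the nucleolar protein nucleolin, was at 724, 639 and 636 CPM against 249, 369 and 332 CPM, a change of -1.03 ± 0.15 (edgeR adjusted p = 0.011). Myc, the growth-driving transcription factor, changed by -1.48 ± 0.28 and Mybbp1a by -2.27 ± 0.57. Noc2l and Npm1 did not pass, at -0.67 ± 0.18 and -0.36 ± 0.21. None of the 3 calls held.

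Genes known from foetal growth and imprinting fell in part. Of 27 listed, 16 were tested, 7 fell and 1 rose, with a median of -2.12. Igf2bp1 and Igf2bp3 are RNA-binding proteins of embryonic tissue. Igf2bp1 was at 52.8, 49.8 and 61.7 CPM at E14.5 and had 3 counts at P56, a ratio of 1080 (95% counting interval 369 to 5240). Igf2bp3, added here after its value was seen, was at 133, 126 and 131 CPM and then at 0.380, 4.84 and 0.275 CPM. It changed by -6.10 ± 1.20 (edgeR adjusted p = 0.0246). The imprinted H19 RNA was at 25.9, 26.9 and 17.2 CPM at E14.5 and at 0.0634, 0.0914 and 0.0458 CPM at P56, a change of -8.29 ± 0.81. Lin28b and Mest had no counts at P56; Lin28b was thus at least 114-fold lower and Mest at least 60.7-fold. The imprinted RNA Meg3 went the other way, from 0, 0.0352 and 0.0419 CPM to 11.9, 8.59 and 3.85 CPM. It had 2 counts at E14.5, and P56 over E14.5 was a ratio of 290.0 (95% counting interval 79.7 to 2400). Of the 7 lower calls 2 held, those of Igf2bp1 and H19; the Meg3 call did not hold. Impact and Sgce, both imprinted, had overlapping groups and were not called.

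Of 23 genes of glycolysis, which breaks down sugar, 4 were lower and 2 higher, with a median of -0.65; the share called higher was near the 7.09% of all genes, and neither higher call held. Pkm, pyruvate kinase, was at 508, 463 and 574 CPM at E14.5 and at 160, 179 and 154 CPM at P56, with tight groups. It changed by -1.60 ± 0.12 (edgeR adjusted p = 0.000946). Pdk1, a kinase that inhibits pyruvate dehydrogenase, changed by -2.25 ± 0.20 and Gapdh by -1.37 ± 0.27. Gapdh has many near-identical pseudogenes, among which its reads may be split. Aldoc, the brain form of aldolase, rose by 2.62 ± 0.63 (edgeR adjusted p = 0.04). Aldoa and Tpi1 did not pass, at -0.18 ± 0.12 and -0.69 ± 0.19. The call of Gapdh did not hold, and the other 3 lower calls did.

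Cholesterol synthesis genes rose, 8 of 24 against a background of 7.09%, none fell, and the median was 1.38. Msmo1, a sterol oxidase of the pathway, was at 26.8, 27.7 and 34.1 CPM at E14.5 and at 161, 291 and 197 CPM at P56, with no overlap. It rose by 2.91 ± 0.26 (edgeR adjusted p = 0.00185). The enzymes Sc5d and Fdft1 rose by 2.48 ± 0.37 and 2.47 ± 0.44, while Ebp and Pmvk did not pass, at 0.74 ± 0.34 and 1.30 ± 0.41. The count of higher calls was 4, 3 and 4 without E14.5 replicate 1, 2 and 3, and 3 of the 8 calls held. Of the 24 genes of lipid transport and storage, 4 rose and 4 fell, with a median of -0.34. Pltp, a phospholipid transfer protein, was at 48.5, 65.4 and 56.6 CPM and then at 663, 968 and 726 CPM, and rose by 3.83 ± 0.20 (edgeR adjusted p = 0.000333). The cholesterol exporter Abcg1 and Mylip, a ubiquitin ligase, went the other way, at -2.61 ± 0.59 and -1.72 ± 0.31. Plin2, the coat protein of lipid droplets, was at 1108, 1236 and 1098 CPM at E14.5 and at 311, 483 and 450 CPM at P56. It changed by -1.43 ± 0.17 (edgeR adjusted p = 0.00482). The Abcg1 and Mylip calls did not hold.

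Of 32 scavenger and phagocytic receptors 19 were higher and 4 lower, with a median of 1.11. Of these, 13 of the higher calls held, and with any 1 E14.5 library left out none of the lower calls was made. Mrc1 and the Cd209 genes described above belong to this list. Cd5l, a scavenger-type secreted protein, was at 8.32, 4.61 and 4.15 CPM in the embryo and had no counts at P56, at least 113-fold lower, a call that did not hold. Of 26 complement and Fc receptor genes 17 rose and none fell, with a median of 1.28. Fcgr2b, the inhibitory Fc receptor for IgG, was at 123, 95.8 and 120 CPM at E14.5 and at 2203, 1862 and 1864 CPM at P56. It rose by 4.18 ± 0.16 (edgeR adjusted p = 0.000114). C4b, a complement component, was at 3.24, 0.0352 and 0.587 CPM, scattered in the embryo, and at 354, 395 and 279 CPM at P56, a change of 8.12 ± 1.25 (edgeR adjusted p = 0.0123). Cd55, which breaks complement convertases, and Cd93 rose by 3.86 ± 0.60 and 3.16 ± 0.43, and Cr1l did not pass, at 0.85 ± 0.23. The summed CPM of this list was 17150 to 18410 at E14.5 and 50970 to 58760 at P56. Of the 17 calls 9 held; C4b was lost without the third E14.5 library, and Cd55 and Cd93 did not hold.

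Lysosomal genes rose in part, 18 of 41 and none lower, with a median of 0.40. Ctss, the protease cathepsin S that trims the class II chaperone, was at 708, 612 and 627 CPM at E14.5 and at 6864, 6058 and 6022 CPM at P56. It rose by 3.33 ± 0.11 (edgeR adjusted p = 8.76e-05), with all P56 libraries close together. Ctsh, another cathepsin, rose by 2.52 ± 0.16 and the membrane protein Cd63 by 1.85 ± 0.16. The abundant Grn and Lamp1 did not pass, at 0.25 ± 0.08 and 0.21 ± 0.08. Among 23 genes of haem and iron handling 7 rose and 2 fell, with a median of -0.11, the share called lower being near the 7.05% of all genes. Cp, the ferroxidase ceruloplasmin, was at 25.6, 20.5 and 30.3 CPM and then at 382, 512 and 391 CPM, and rose by 4.11 ± 0.21 (edgeR adjusted p = 0.000309). Trf, transferrin, rose by 2.10 ± 0.13 and Hpgd, a prostaglandin-degrading enzyme on the same list, by 2.53 ± 0.10. Hmox1, which opens the haem ring, was at 1283, 464 and 1115 CPM against 327, 448 and 611 CPM, with overlap, and was not called at -1.0 ± 0.41. Of the lysosomal calls 12 held and of the 7 higher haem and iron calls 5.

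Among 29 chemokines and cytokines 11 were higher and 1 lower, with a median of 0.92. Ccl8, a monocyte-attracting chemokine, was at 0.438, 0.0704 and 0.210 CPM at E14.5 and at 224, 333 and 194 CPM at P56. It rose by 10.08 ± 0.62 (edgeR adjusted p = 0.000568). Cxcl16 and the cytokine Osm rose by 4.43 ± 0.49 and 4.18 ± 0.40. Tnfsf13b, the B cell survival factor BAFF, had no counts at E14.5 and was at 16.8, 39.4 and 4.67 CPM at P56, at least 507-fold higher. The single lower member, named after its value was seen, was Tnf, at 576, 674 and 572 CPM against 60.5, 125 and 202 CPM. It changed by -2.20 ± 0.42 (edgeR adjusted p = 0.0235). Cxcl2 was not called, at 0.18 ± 0.14. The calls of Tnfsf13b and Tnf did not hold.

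Of 27 growth factor and matrix genes 4 rose and 2 fell, with a median of 0.27. The share called lower was near the 7.05% of all genes. Pdgfa, a platelet-derived growth factor, rose by 4.44 ± 0.75 from 1.36, 0.528 and 0.839 CPM to 18.5, 15.9 and 23.3 CPM. The membrane glycoprotein Gpnmb and the matrix protein Thbs1 were low at both ages and called at -5.82 ± 1.20 and -4.63 ± 1.05. Igf1, insulin-like growth factor, was at 229, 289 and 226 CPM against 416, 313 and 318 CPM, without overlap, and was not called at 0.54 ± 0.18 (edgeR adjusted p = 0.12). Bmp2 was not called, at -0.14 ± 0.17. Pdgfa, Gpnmb and Thbs1 did not hold. Of 28 genes of Toll-like receptor signalling 7 rose and none fell, with a median of 0.30. Cd14, the lipopolysaccharide co-receptor, was at 187, 205 and 158 CPM at E14.5 and at 4367, 4681 and 4465 CPM at P56, and rose by 4.66 ± 0.13 (edgeR adjusted p = 6.98e-05). Ly86 rose by 1.43 ± 0.15, Ly96, the MD-2 partner of the receptor, by 1.72 ± 0.33 and the inflammatory caspase Casp4 by 3.36 ± 0.49, while Tlr2 had overlapping groups and was not called at 0.13 ± 0.12. Without any 1 E14.5 library this list kept 2 calls, Cd14 and Ly86.

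Interferon-induced genes rose, 17 of 35 with none lower and a median of 1.44. Ifi203 was at 9.07, 5.10 and 5.03 CPM at E14.5 and at 136, 65.8 and 99.2 CPM at P56, a change of 4.02 ± 0.44 (edgeR adjusted p = 0.00356). Ifi203 belongs to a family of similar neighbouring genes among which reads may be split. Usp18, which removes the ubiquitin-like ISG15, was at 27.3, 16.6 and 10.95 CPM and then at 247, 133 and 141 CPM, and rose by 3.30 ± 0.46. Zbp1, a sensor of Z-form nucleic acid, and the exonuclease Isg20 rose by 3.23 ± 0.49 and 3.89 ± 0.95, and Trim30a was not called at 0.48 ± 0.21. The summed CPM was 1587 to 1770 at E14.5 and 3826 to 5659 at P56. The number of calls was 6, 6 and 5 without E14.5 replicate 1, 2 and 3, and 4 held; Usp18 was lost without replicate 2, Zbp1 without any one E14.5 library and Isg20 in 5 of the 6 fits.

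The interferon-stimulated response element is the known docking site of interferon-activated factors, written here as GAAA, any 2 bases and GAAA. Windows of 70 bases from the RefSeq promoters of GRCm38.p6 show it in capitals, on either strand, for 3 called genes: Ifit3 at chr19:34583367-34583436 on the plus strand, Isg15 at chr4:156200855-156200924 and Ifi203 at chr1:173942498-173942567 on the minus strand.
Ifit3: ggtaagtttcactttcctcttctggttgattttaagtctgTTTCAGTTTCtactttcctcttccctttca
Isg15: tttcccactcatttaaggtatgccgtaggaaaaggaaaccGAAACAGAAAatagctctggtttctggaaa
Ifi203: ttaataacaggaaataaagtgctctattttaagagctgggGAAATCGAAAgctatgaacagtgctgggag
The motif was in 17 of the 26 interferon genes with a RefSeq promoter (65.4%) and in 3.99% of all 27025 promoters, in 7 of 11 called genes and 10 of 15 others. Ifit3 and Isg15, chosen for their motif after their values were seen, rose by 3.05 ± 0.60 and 2.42 ± 0.56, and neither held. Of the other motifs searched in the same way, the letters CACGTG were in 5 of 16 circadian promoters (31.2%) against 8.09% of all, in 0 of 3 called genes and 5 of 13 others. TCACNCCAC, searched in the cholesterol list, was in 1 of 17 (5.88%) against 1.44%, in 0 of 5 called genes and 1 of 12 others.

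Immediate early genes, which are switched on within minutes of a stimulus and also by tissue dissociation, rose in 19 of 34 cases with 1 lower and a median of 1.09. Atf3, a stress-induced transcription factor, was at 460, 388 and 308 CPM at E14.5 and at 4616, 5117 and 5058 CPM at P56. It rose by 3.72 ± 0.17 (edgeR adjusted p = 0.000226). Klf4 rose by 5.05 ± 0.35, from 2.72, 5.28 and 4.49 CPM to 143, 112 and 147 CPM, and the heat shock gene Hspa1b by 2.67 ± 0.52, a call that did not hold. The 1 lower member was the phosphatase Dusp2, at 587, 508 and 534 CPM against 54.1, 97.3 and 91.3 CPM, a change of -2.71 ± 0.23 (edgeR adjusted p = 0.00163). The summed CPM was 26010 to 26470 at E14.5, had a mean of 6665 at P3, 38950 at P10 and 50710 at P21, and was 50210 to 74620 at P56. Its part in the other increases was not tested. Of the 19 higher calls 13 held.

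Among 16 circadian genes 4 rose and none fell, with a median of 1.33: Nfil3 by 3.18 ± 0.32, Bhlhe40 by 5.86 ± 1.18, Dbp by 3.72 ± 0.74 and Rora by 2.41 ± 0.61. Only Nfil3 held, and the clock factor Arntl was not called at 0.94 ± 0.34; the hour of collection is not in the labels. Of 38 transcription factors of macrophages 11 rose and 1 fell, with a median of 0.40. Myb, the factor of definitive blood progenitors, was at 6.22, 4.12 and 10.6 CPM and had 2 counts at P56, a ratio of 203 (95% counting interval 55.9 to 1680), a call that did not hold. Nr4a1 had overlapping groups and was not called at 0.38 ± 0.27. Csf1r, the receptor on which these cells depend, was at 4121, 4300 and 4171 CPM against 4510, 5855 and 5738 CPM and narrowly missed, at 0.40 ± 0.10 (edgeR adjusted p = 0.0556). Of the 11 higher calls 6 held.

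**Figure D4:**
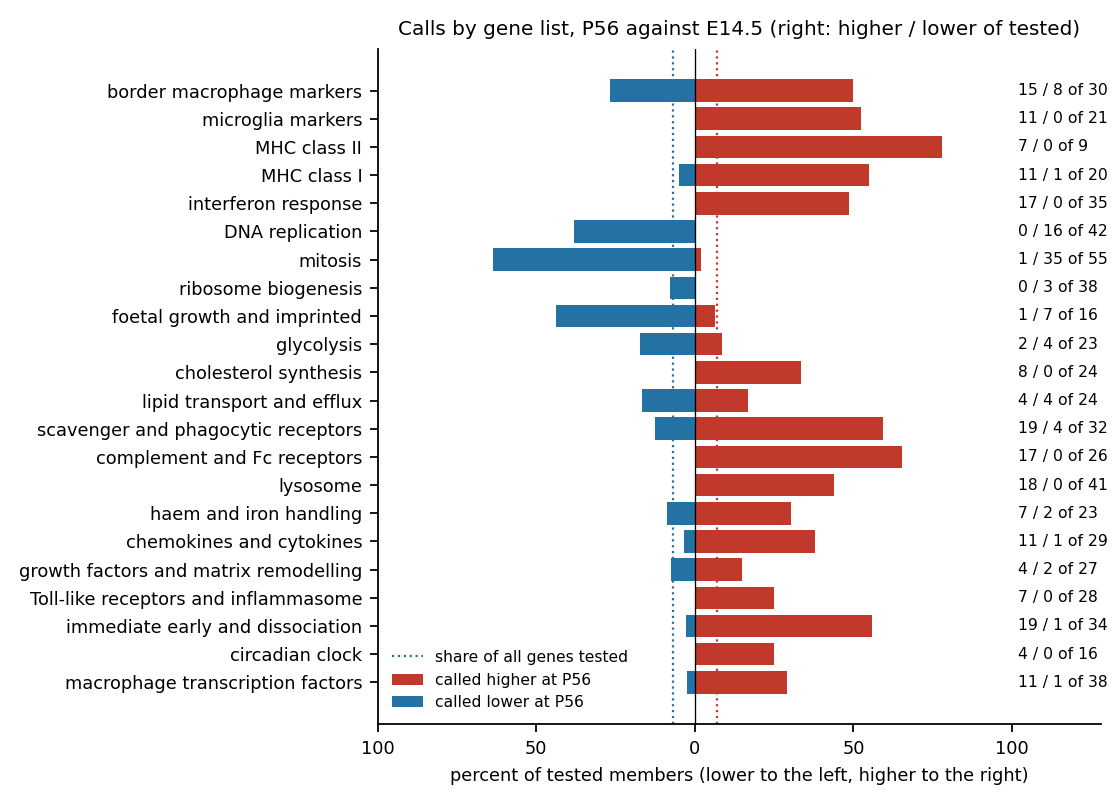
Share of the tested members of each of 22 gene lists that was called, in percent, higher at P56 to the right in red and lower to the left in blue; dotted lines give the 7.09% and 7.05% of all tested genes, and the text at the right gives the counts. MHC class II, with 7 of 9, has the longest bar to the right and mitosis, with 35 of 55, the longest to the left.

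Several of the largest increases fell outside these lists. Ptgds, which makes prostaglandin D and is also made by meningeal cells, was at 0.832, 0.422 and 0.545 CPM at E14.5 and at 1626, 674 and 843 CPM at P56. It rose by 10.83 ± 0.58 (edgeR adjusted p = 0.000353) and had a mean of 116 CPM at P3. The summed fibroblast and leptomeningeal markers, given with the other cell types below, overlapped between the ages while Ogn and Igfbp2 among them rose, and their part in the Ptgds increase was not tested. Pla2g2d, a secreted phospholipase, was at 0.0438, 0.0352 and 0.587 CPM and then at 210, 254 and 289 CPM, a change of 10.19 ± 0.92. Both genes were far above the embryo in every P56 library. Klra2, a lectin-type receptor, had 1 count at E14.5, a ratio of 2110 (378 to 83300), and the receptor Slamf7 a ratio of 807 (223 to 6670). Xdh, which makes uric acid, rose by 9.0 ± 1.69. Wfdc17 and Socs3, an inhibitor of cytokine signalling, rose by 5.47 ± 0.32 and 4.89 ± 0.32, Socs3 from 30.9, 17.4 and 22.7 CPM to 801, 736 and 499 CPM. The Slamf7 and Xdh calls did not hold.

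Markers of other cell types were summed in each library, and in bulk RNA fewer cells of a type and less RNA per cell cannot be told apart. For the counts of calls below, 7.09% of all tested genes were called higher and 7.05% lower. Erythroid markers were at 40.8, 662 and 17.7 CPM at E14.5 and 2.01 to 3.48 at P56, and neutrophil markers at 1.62, 165 and 0.671 CPM against 0.137 to 0.412, so the second E14.5 library stood apart in both. Markers of the choroid plexus and ependyma were at 35.1 to 38.9 CPM at E14.5 and at 192, 1023 and 132 CPM at P56, led by Ttr at 157, 565 and 92.9 CPM. Dendritic cell markers were at 246 to 274 CPM against 967 to 1257. Of 5 tested 4 rose and none fell, with a median of 2.75: Bst2 (2.05 ± 0.18), Siglech, Cd209d and Kmo. Bst2 and Siglech are also made by macrophages and microglia, and the calls of Cd209d and Kmo did not hold. Monocyte markers were at 460 to 598 CPM against 495 to 980, with overlap, most of it Nr4a1, which was not called. Of the 4 tested, 1 rose and 1 fell, with a median of -0.1. Ccr2, a monocyte receptor, rose by 2.59 ± 0.54, from 21.8, 7.53 and 24.1 CPM to 101, 146 and 63.9 CPM. Treml4 fell to 1 count at P56, a ratio of 199 (35.4 to 7890), a call that did not hold. Flt3, a defining dendritic cell gene, was at 0 in all E14.5 libraries and at 0, 1.42 and 8.65 CPM at P56. Oligodendrocyte markers were at 1697 to 1874 CPM against 6234 to 8031, nearly all Trf; Mbp rose by 2.66 ± 0.38 and Mobp, with 2 counts at E14.5, had a ratio of 865 (239 to 7150); the calls of Ccr2, Mbp and Mobp did not hold, nor did those of Ogn, Igfbp2, Col3a1, Vtn and Ttr. Of 20 fibroblast and leptomeningeal markers 17 were tested, and 2 rose and 1 fell, near the shares of all genes. Their sums were 125, 178 and 113 CPM at E14.5 and 241, 163 and 166 CPM at P56, with overlap. Ogn, at 0 in all E14.5 libraries, was at 3.36, 2.33 and 8.70 CPM at P56, at least 120-fold higher, and Igfbp2 rose by 3.60 ± 0.54. The collagen gene Col3a1 had 2 counts at P56, a ratio of 304 (83.7 to 2510), and Slc6a13, named after its values were seen, was at 0.789, 0.246 and 1.80 CPM against 38.5, 2.42 and 43.1 CPM and was not called. Mural cell markers were at 4.95 to 8.06 CPM against 22.1 to 31.4, where Vtn rose by 2.89 ± 0.62. Endothelial markers were at 63.3 to 76.4 CPM against 52.9 to 83.0, and astrocyte and radial glia markers at 208 to 258 CPM against 111 to 246. B cell markers were at 491 to 584 CPM against 603 to 650. Neuronal markers were at 6.58 to 13.2 CPM against 28 to 51.5. T and NK cell markers were at 21 to 37.1 CPM against 51.3, 65.8 and 181 CPM, nearly all Cd4. Only Cd4 was tested on that list, and it was not called, at 1.93 ± 0.55. Of the 15 listed, 10 had no counts in any of the 6 libraries. Mast cell markers were at no more than 4.74 CPM. The part of such cells in the class II, dendritic-type and lectin increases was not tested.

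The changes were spread over the span from E14.5 to P56. Those before and after birth cannot be told apart between E14.5 and P3. The ages between are described here by the share of the E14.5 to P56 change in log2(CPM + 1) that was reached. Over all genes called higher the median share was 34.4% at P3, 66% at P10 and 84% at P21, and over those called lower 27.9%, 55.5% and 66.6%. MHC class II genes were at 3.84%, 47.7% and 59.5%. The called complement and Fc receptor genes were at 52.1%, 79% and 94.1% and the lysosomal genes at 55.3%, 77.6% and 93.7%. Higher border markers had reached 52.7% by P3, whereas the lower ones were at -15.6%, above the embryo. DNA replication genes were at 79.9% by P10 and mitosis genes at 52.4%. The immediate early genes were at -56.6% at P3 and 81% at P10. These shares describe genes selected on the end points and carry no test.

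Microglia of the same batch and ages, 3 libraries each, gave a test of whether the change with age differed between the populations. Of 13531 genes 403 (2.98%) were called, 325 (2.4%) with a larger increase or smaller decrease in meningeal macrophages and 78 (0.576%) the reverse. Apoe moved in opposite directions: on the scale of these 12 libraries it went from 12090, 12890 and 11890 CPM to 81610, 71670 and 80290 CPM in meningeal macrophages and from 8602, 7535 and 7685 CPM to 269, 194 and 461 CPM in microglia. The difference of the changes was 7.27 ± 0.34 (edgeR adjusted p = 2.12e-06). H2-Aa and Cd74 differed by 12.13 ± 1.97 and 8.23 ± 0.84, since microglia stayed at 0.52 to 19.4 CPM of H2-Aa and 7.69 to 51.5 CPM of Cd74 at P56. Cd163, Ms4a7 and Mrc1 differed by 4.86 ± 0.63, 5.74 ± 0.36 and 3.84 ± 0.74, and Igf1 by 5.56 ± 1.09. Within meningeal macrophages Mrc1 and Igf1 were not called, at 0.23 and 0.54, so their differences lay mostly on the microglia side. For P2ry12 and Cx3cr1 the change in meningeal macrophages was below that in microglia, with differences of -1.21 ± 0.21 and -1.53 ± 0.35. The mitosis list showed 1 call of 55 and a median difference of 0.38, and the class I list none of 20. Both counts were near the 2.98% of all genes. In simulated counts the test recovered 9 of 66 differences of 8-fold, so few calls do not show that the populations changed alike. Border markers were called in 14 of 30 cases, immediate early genes in 16 of 34 and cholesterol genes in 7 of 24, all with the change in meningeal macrophages above that in microglia. For Lyve1, Pf4, Timd4 and Mki67 the difference was not called, at -0.53, 1.96, 9.60 and 2.94. With limma voom and one weight per group 125 differences were called, 116 of them shared, and those of H2-Aa and Ms4a7 were lost (adjusted p = 0.076 and 0.185). In simulated counts 17 of edgeR's 29 calls of a difference were false, so single genes called by edgeR alone are less certain.

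**Figure D5:**
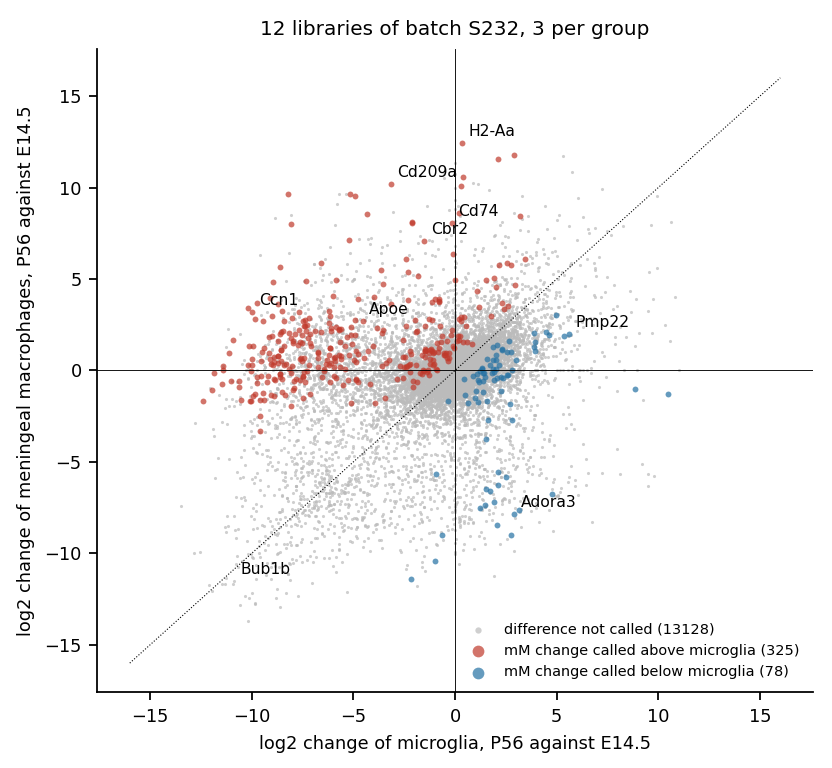
Log2 change from E14.5 to P56 in microglia (x axis) and in meningeal macrophages (y axis) for 13531 genes, with 3 libraries per group; red points are the 325 genes whose change was called above that of microglia, blue the 78 called below, and the dotted line marks equal change. Apoe lies above 0 for meningeal macrophages and below 0 for microglia, H2-Aa is high on the y axis and near 0 on the x axis, and Bub1b lies near the line.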

How the data were processed

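Bulk RNA-seq was made from sorted cells of 45 samples, with SMARTer v4 cDNA and Nextera XT libraries, per the labels' protocols; this kit does not mark strand, so overlapping and antisense genes cannot be told apart. The deposited table holds raw counts per gene, which the authors made with bcl2fastq 2.18, STAR 2.7.8a and featureCounts 2.0.2, per the submitters' processing notes. Their genome build, annotation and strand setting were not given in the sources used here.

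Samples were grouped by the titles and time points in the labels. Counts of the 6 libraries were tested with edgeR 4.0.16 (R 4.3.3), with TMM scaling, filterByExpr (minimum count 10, total 15), a robust quasi-likelihood fit and Benjamini-Hochberg adjustment at 0.05. The difference from microglia was an interaction term over 12 libraries. Levels are CPM after TMM over the 15 meningeal macrophage libraries. Counting intervals are at 95% and cover counting error only, since reads copied by PCR and not tagged by molecule are not independent. A gene at 0 in a group was set to a floor of 3 counts over that group. The scripts were tested on simulated data. There the edgeR test between the ages made 37 calls, 1 of them false. It recovered 1 of 67 genes changed 2-fold, 13 of 67 changed 4-fold and 22 of 66 changed 8-fold. Alternatives were DESeq2 1.42.0, limma 3.58.1 voom, other filters and sample sets, a replicate block and each library left out.

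The members, gene lists and tests were chosen with earlier results of these data known. Genes were named by rule, leaving out predicted, mitochondrial, ribosomal protein, small RNA and sex-marker genes: the 12 largest called changes per direction at 20 CPM or more, the 10 largest at 500 CPM or more, per list up to 4 called with the largest change and 2 others with the highest level, 16 followed genes, and the 8 largest differences from microglia per direction; others are said to be chosen after their values were seen. Some genes stand on more than 1 list. Some genes that the rule names are not reported here. Promoters are RefSeq, build GRCm38.p6.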

Additional observations from a re-analysis of the deposited data

Results flagged for a closer look

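The change from E14.5 to P56 was called different between meningeal macrophages and microglia in 403 genes by edgeR's interaction test. In simulated counts 17 of the 29 calls of this test were false, so the single genes below are uncertain. The values below are differences of log2 changes, meningeal macrophages minus microglia, and those of genes at or near 0 in a group depend on the prior count. On the higher side were Slamf7 at 14.44, Cyp4f18 at 14.25, Plbd1 at 13.77, Gvin3 at 13.58, Cd209a at 13.37, Ccn1 at 13.15 and Ms4a4c at 12.68. Cyp4f18, a fatty acid hydroxylase, went from 0.615, 1.21 and 0.804 CPM to 36.5, 48.9 and 42.4 CPM in meningeal macrophages and from 21.3, 17.7 and 20.2 CPM to 0, 0 and 0.103 CPM in microglia. Ccn1, a matrix-associated immediate early gene, went from 63.2, 118 and 64.0 CPM to 818, 616 and 714 CPM in meningeal macrophages and from 92.0, 107 and 118 CPM to 0, 0.219 and 0.103 CPM in microglia. On the lower side the largest were Slc39a12 at -11.79, Angptl7 at -11.53, Adora3 at -10.76, Csmd3 at -9.86, Yes1 at -9.45, Olfml2b at -8.74, Zkscan5 at -8.38 and Lig3 at -8.37. Adora3, an adenosine receptor, had no counts in P56 meningeal macrophages and went from 18.2, 22.9 and 17.6 CPM to 190, 87.5 and 122 CPM in microglia.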

How the results depend on the processing

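The number of genes called between the ages, 1729 with 50.1% higher, was 1716 with DESeq2 size factors, 1872 with limma voom and 1928 with all 15 meningeal macrophage libraries. It was 1125 with no low-count filter (58.3% higher), 2853 with the DESeq2 Wald test, 943 with all 45 libraries and a batch term (58.7% higher) and 44 with the third E14.5 library alone. With each library left out in turn it ranged from 386 to 2436. With the replicate number as a block it was 450 (71.6% higher); same-numbered samples did not deviate together, with correlations of 0.016, -0.031 and 0.011 between the ages, so the samples share only a number. No call was made in the opposite direction in any of these fits, and the cause of the moves was not tested. Of 131 named called genes, 123 stayed called with voom, 97 with all 45 libraries, 75 with the block, 70 to 74 without an E14.5 library and 25 with the third E14.5 library alone; all 131 stayed called with the DESeq2 Wald test, most of whose calls in simulated counts were false, so that this says nothing about stability. The change of Sall1, not called, ranged from -0.15 to 3.14 with 1 library left out, below 0 without E14.5 replicate 1 (-0.15) or 3 (-0.07) or P56 replicate 2 (-0.053), and that of Cx3cr1 from -0.32 to 0.082, above 0 without P56 replicate 1. That of Cenpf, not called, was -0.16 with the third E14.5 library alone and ranged from -0.073 to 0.22 with 1 library left out. The 403 differences from microglia became 1435 with the DESeq2 Wald test, 125 with voom, 124 with the replicate block and 217 to 793 with each library left out. Genes at or near 0 at P56 are limited by depth: a count of 0 over the group allows 0.0504 CPM.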

Other observations

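Families that share the start of a gene symbol were counted after the data were seen, as a description, and only some of them are named here. Over all genes tested, 7.09% were called higher and 7.05% lower. Of 15 tested genes whose symbol starts with Ifi 11 rose and none fell, of 17 Clec lectin genes 8 rose and none fell, and of 12 Ccl chemokine genes 7 rose and none fell, with median log2 fold changes of 2.07, 1.93 and 1.26. Of 28 Kif kinesin genes 8 fell and none rose, with a median of -1.95, and of 19 Nup genes of the nuclear pore 4 fell and none rose, with a median of -1.34. The 49 Mrpl and 29 Mrps genes, proteins of the mitochondrial ribosome, held no call in either direction.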
